A study of Mus musculus with 10 samples.

Results

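The genes described here are 37 marker genes of T cells, B cells and natural killer (NK) cells, taken by gene symbol from all probes of a mouse whole-genome array. All 37 had a probe, with 3 probes for Cd27, 2 each for Cd8a and Klrb1c and 1 for every other gene, which makes 41 of the 26423 probes. The study followed the left ventricle of the heart after transverse aortic banding (TAB), an operation that narrows the aorta and loads the left ventricle with pressure, or after a sham operation. All animals were male C57BL/6J mice operated at the age of 8 weeks, with no other treatment or genetic change in either group. RNA was taken 3, 5, 7, 14 or 28 days after surgery, with 1 TAB and 1 sham sample for each day, 10 samples in all. How many mice went into a sample is not stated in the sources used here. The condition field of the TAB sample of day 14 reads 15 days whereas its title gives 14, and it was used as day 14.

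T cells recognise antigen through a receptor whose CD3 subunits and zeta chain pass the signal to the kinases Lck and ZAP-70, and the coreceptors CD4 and CD8 divide them into helper and cytotoxic cells. B cells use a receptor whose signal passes through CD79A and CD79B, and NK cells kill with perforin and granzymes that they share with cytotoxic T cells. All are found in the heart as a small fraction of its cells, and more enter it when the heart is injured or overloaded. In RNA of a whole ventricle, fewer cells of a type and less RNA per cell cannot be told apart.

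Promoter sequences are shown for the genes whose TAB and sham levels differed most clearly, Lck, Cd3d, Ctla4 and Cd3e, since the first pair moved in the opposite direction to the other. Each is the window of 250 bases before an annotated start, on the strand of the gene, from RefSeq on build GRCm38.p6, with capitals marking a match to the E-box CAGGTG or the Runx core TGTGGT on either strand. Lck, on the minus strand of chromosome 4, has 2 annotated starts, and Cd3d and Cd3e lie on chromosome 9 with starts 27825 bases apart.

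Lck, upstream start, chr4:129573642-129573891, minus strand: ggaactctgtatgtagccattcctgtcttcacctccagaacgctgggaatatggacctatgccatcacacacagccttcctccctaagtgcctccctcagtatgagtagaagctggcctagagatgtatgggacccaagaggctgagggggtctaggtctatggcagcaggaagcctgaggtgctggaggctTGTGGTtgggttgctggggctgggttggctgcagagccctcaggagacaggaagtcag
Lck, downstream start, chr4:129558373-129558622, minus strand: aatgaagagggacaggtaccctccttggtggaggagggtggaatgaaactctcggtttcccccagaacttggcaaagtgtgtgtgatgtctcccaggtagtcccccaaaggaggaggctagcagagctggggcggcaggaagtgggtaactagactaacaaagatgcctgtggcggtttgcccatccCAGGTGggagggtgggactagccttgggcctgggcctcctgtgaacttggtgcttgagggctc
Cd3d, chr9:44981536-44981785, plus strand: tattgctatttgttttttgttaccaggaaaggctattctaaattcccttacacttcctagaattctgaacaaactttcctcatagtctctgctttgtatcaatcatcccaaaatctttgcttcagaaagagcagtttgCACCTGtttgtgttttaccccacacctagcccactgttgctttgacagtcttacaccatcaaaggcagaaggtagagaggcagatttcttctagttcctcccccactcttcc
Cd3e, chr9:45009612-45009861, minus strand: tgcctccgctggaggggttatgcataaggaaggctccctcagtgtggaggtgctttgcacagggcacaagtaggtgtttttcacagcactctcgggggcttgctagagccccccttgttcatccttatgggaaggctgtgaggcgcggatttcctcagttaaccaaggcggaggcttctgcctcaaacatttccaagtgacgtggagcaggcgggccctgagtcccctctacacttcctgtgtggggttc
Ctla4, chr1:60908775-60909024, plus strand: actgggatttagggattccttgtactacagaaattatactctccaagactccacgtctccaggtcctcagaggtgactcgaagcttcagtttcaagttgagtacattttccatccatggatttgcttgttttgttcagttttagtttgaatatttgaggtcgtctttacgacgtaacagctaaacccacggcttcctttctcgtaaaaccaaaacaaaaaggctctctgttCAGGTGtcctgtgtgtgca

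The Runx core stood 58 bases before the upstream start of Lck, and an E-box stood 63 bases before its downstream start, 112 before that of Cd3d and 19 before that of Ctla4. The window of Cd3e held neither. Genes on both sides of the comparison therefore carried an E-box. The table held 31 windows for 26 of the 37 genes. The E-box was in 14 of the 31 windows (45.2%) against 17.2% of the 32851 windows of all genes, and the Runx core in 9 of the 31 windows against 14.0%. The genes with a Runx core were Gzma, Gzmb, Klrb1c, Lck, Ncr1, Nkg7, Prf1 and Zap70. The windows of Ncr1 overlap, hold the same Runx cores and are each counted. The ETS core CCGGAA was in the windows of Gata3 and Zap70 (12.0% of all windows), TATAAA in those of Foxp3 and Ifng (12.4%), and the octamer ATTTGCAT, known from B cell promoters, in none of the 31 (1.60% of all windows). Both strands were searched for each motif. A match is a description of the letters in these windows and not a measured binding site.

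Which of these genes the arrays detected at all was read from the flag of each spot, where a value below 0 was taken as a spot that the software had not found. Of the 37 genes, 11 had a probe found on all 10 arrays, 3 on 5 to 9 arrays, 11 on 1 to 4 arrays and 12 on none. Probes found on all arrays made up 29.3% of the members against 47.9% of all probes. The share found on 1 to 4 arrays was 26.8% against 8.72%, and the share found on none was 34.1% against 34.0%. The marker genes thus included fewer steadily found probes than the array as a whole and more that were found on a few arrays.

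The 11 genes found on every array were Cd2, Cd3e, Cd27, Cd28, Ctla4, Zap70, Il2rb, Cd22, Cd79a, Cd79b and Pax5, and Lck, Cd8b1 and Foxp3 formed the middle class. Among T cell genes 6 of 20 were found on all arrays and 6 of 20 on none. Of the 7 B cell genes 4 were found on all arrays, and Ms4a1 (CD20), Blk and Pou2af1 were found on none. None of the 3 NK receptor genes was found on all arrays, and Ncr1 and Klrb1c, which define NK cells in C57BL/6 mice, were found on none. The remaining genes found nowhere were Cd247 (the zeta chain), Cd5, Cd6, Icos, Gata3, Tbx21 and Prf1 (perforin). The raw intensities of the 14 probes found on no array ran from −5 to 25, where the median spot that was not found had an intensity of 5 and the 1st percentile of found spots was 25 to 27.

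**Figure D1:**
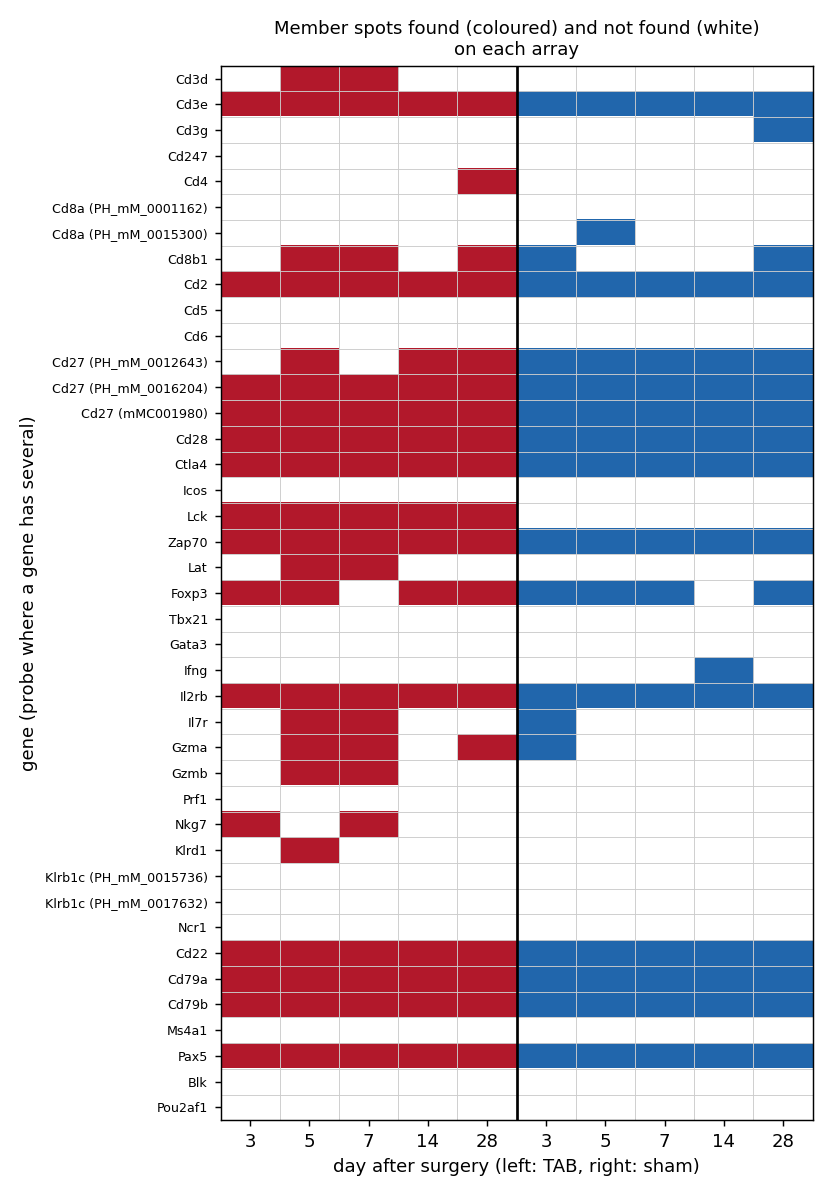
Spots of the 41 member probes on each of the 10 arrays, in rows by gene and in columns by day after surgery, with TAB on the left in red and sham on the right in blue where the spot was found and white where it was not. Lck was found on all 5 TAB arrays and on no sham array, and 14 rows are white throughout.

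In order of day, 15, 22, 20, 15 and 18 member probes were found after TAB and 17, 15, 14, 14 and 16 after sham. TAB arrays of days 5 and 7 held the highest numbers, and the TAB array of day 3 held fewer than the sham array of that day. Among the 29 member probes not found everywhere, 3, 10, 8, 3 and 6 were found on the TAB arrays in order of day, against 5, 3, 2, 2 and 4 on the sham arrays. The share of all probes found was 52.7% to 59.2% after TAB and 54.6% to 59.8% after sham, with the lowest value on the TAB array of day 3. By the other deposited measure, a detection p-value under 0.05, the order was different, with 0, 1, 0, 1 and 1 member probes after TAB and 2, 0, 8, 0 and 6 after sham. Of all probes, 38.6% and 38.0% passed this measure on the sham arrays of days 7 and 28, against 18.8% to 23.5% on the other arrays. With 1 array per operation and day these counts have no replicate check.

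**Figure D2:**
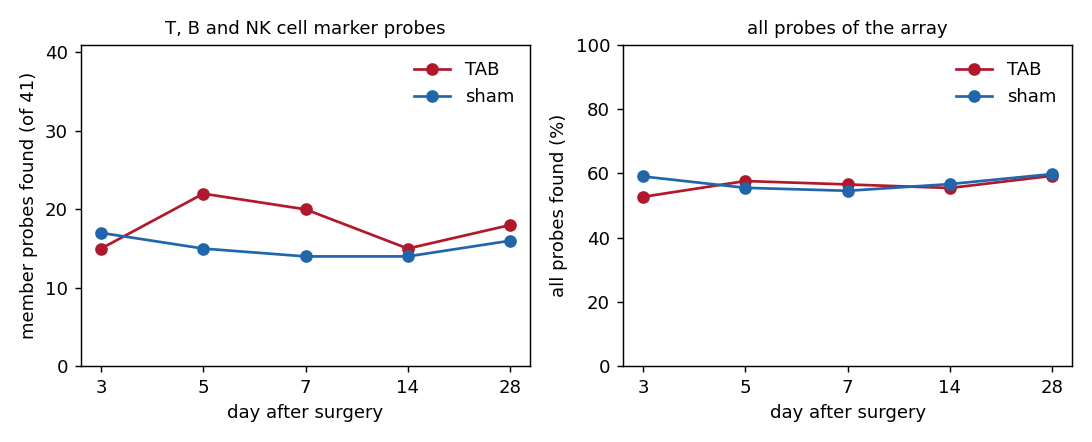
Number of the 41 member probes found (left) and percent of all 26423 probes found (right) against the day after surgery, with 1 point per array, TAB in red and sham in blue. Member probes peaked at 22 and 20 on the TAB arrays of days 5 and 7, while the sham arrays held 14 to 17.

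Levels were compared after scaling and quantile normalization, for the 19976 probes whose scaled intensity was at least 1 in every sample. This filter kept 28 member probes of 25 genes. It removed 13 probes, 10 of them found on no array, and with them the genes Blk, Cd5, Cd6, Gzmb, Icos, Ifng, Klrb1c, Klrd1, Ms4a1, Ncr1, Prf1 and Tbx21. TAB was set against sham with limma over the 5 days, with day as a block, so the days stand in for replicates and the p-values measure the spread of the ratio between days. At an adjusted p under 0.05, Lck and Cd3d were higher in TAB and Ctla4 and Cd3e were lower, 4 of 28 probes (14.3%). Of all probes 14.2% were called, 7.47% as higher and 6.73% as lower, so the share of members called was that of the array. At an unadjusted p under 0.05 there were 10 member probes, and 6750 of all probes. The median mean log2 ratio was −0.03 over the members and −0.05 over all probes kept.

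**Figure D3:**
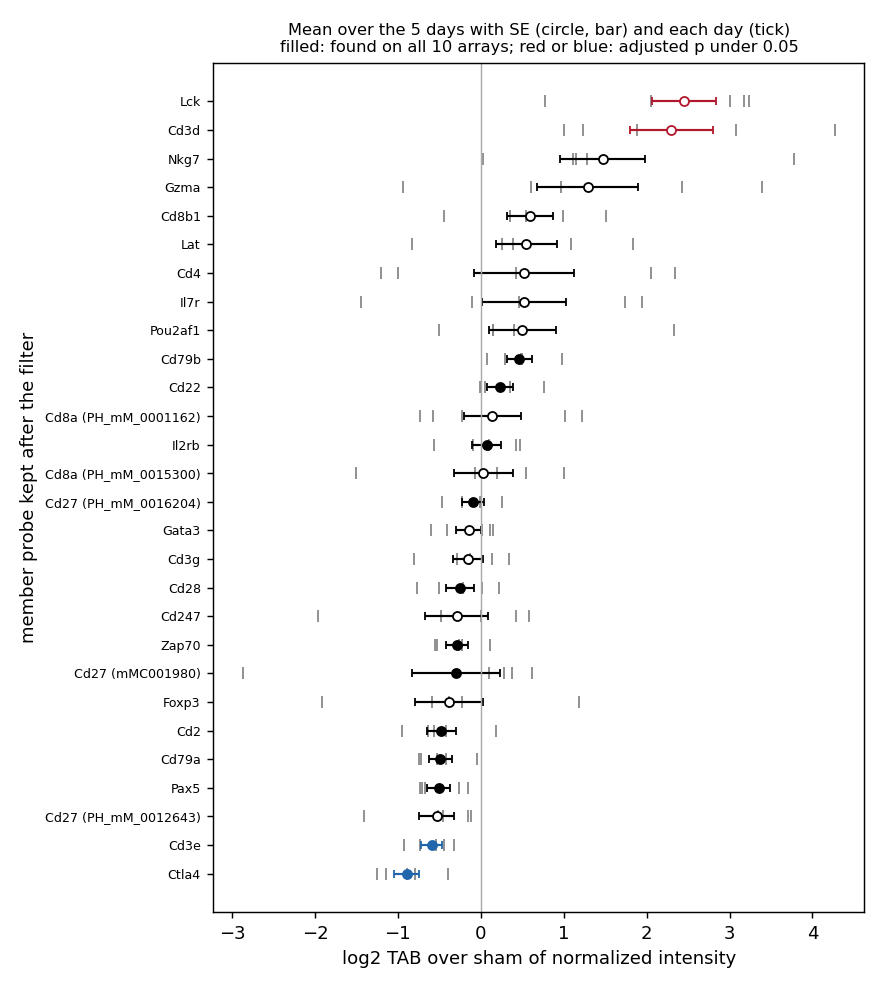
Mean log2 TAB over sham ratio of normalized intensity over the 5 days with its limma SE (circle and bar) and the ratio of each day (grey tick) for the 28 member probes kept, where filled circles mark probes found on all 10 arrays and colour marks an adjusted p under 0.05. Lck and Cd3d lie highest at 2.45 and 2.30 with open circles, and Ctla4 and Cd3e lowest at −0.89 and −0.59 with filled ones.

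Lck, the kinase that starts signalling at the T cell receptor, had normalized intensities of 69.3, 78.3, 67.3, 33.1 and 20.7 after TAB, in order of day as in all series of 5 values that follow. After sham they were 8.60, 8.70, 7.15, 7.97 and 12.1. All TAB values lay above all sham values, the spot was found on 5 of 5 TAB arrays and 0 of 5 sham arrays, and TAB was highest on the first 3 days. The mean log2 ratio was 2.45 ± 0.39 (SE, n = 5 days, limma adjusted p = 0.0235). Since sham spots were not found, the level in TAB was given as at least 4.76-fold higher, against the lowest found spot of each sham array or the probe's own value where that was higher. With the 1st percentile of found spots in place of the lowest, this bound was 1.96-fold.

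The TAB level of Lck was 67.3 to 78.3 on days 3 to 7 and 20.7 to 33.1 on days 14 and 28. The TAB effect of the early days against the late days was not called for Lck (limma unadjusted p = 0.00869, adjusted p = 0.425), and its ratios rest on sham spots that were not found. No member and no probe of the array was called in this contrast (0% of 19976), where 2086 probes and, among members, Lck and Pax5 had an unadjusted p under 0.05. The lowest adjusted p of any probe was 0.227. For Pax5 the early ratio was lower by 0.50 on the log2 scale (early minus late −0.50, limma unadjusted p = 0.0417).

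Cd3d, the delta subunit of CD3, was found on the TAB arrays of days 5 and 7 only. Its raw intensities were 8, 36, 41, 7 and 10 after TAB and 5, 1, 4, 4 and 3 after sham. The normalized intensities were 9.71, 33.2, 42.3, 7.67 and 8.59 after TAB and 4.12, 1.72, 5.00, 3.81 and 2.32 after sham. The groups did not overlap, although 3 of 5 TAB spots and all sham spots were not found. The mean log2 ratio was 2.30 ± 0.50 (SE, n = 5 days, limma adjusted p = 0.0372), taken against sham spots that were not found. No bound is given, since the mean of TAB includes 3 spots that were not found.

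Cd3e, the epsilon subunit of the same complex, went the other way and was found on all arrays. It measured 209, 244, 187, 230 and 294 after TAB and 396, 331, 312, 287 and 427 after sham. TAB was lower on each of the 5 days, while the TAB sample of day 28 lay above the sham sample of day 14, so the groups overlapped. The mean log2 ratio was −0.59 ± 0.13 (SE, n = 5 days, limma adjusted p = 0.0364), with sham 1.51-fold above TAB. Cd3g, the gamma subunit, was found on 1 sham array only, with raw intensities of 7 to 12 after TAB and 9 to 16 after sham (adjusted p = 0.610). Cd247 was found nowhere, with raw intensities of 2 to 13 after TAB and 9 to 12 after sham (adjusted p = 0.641). Of the 4 genes of the CD3 and zeta complex, 1 was called higher, 1 was called lower and 2 were not called. The call of Cd3d rests on spots mostly not found, and Cd3g and Cd247 were near background.

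**Figure D4:**
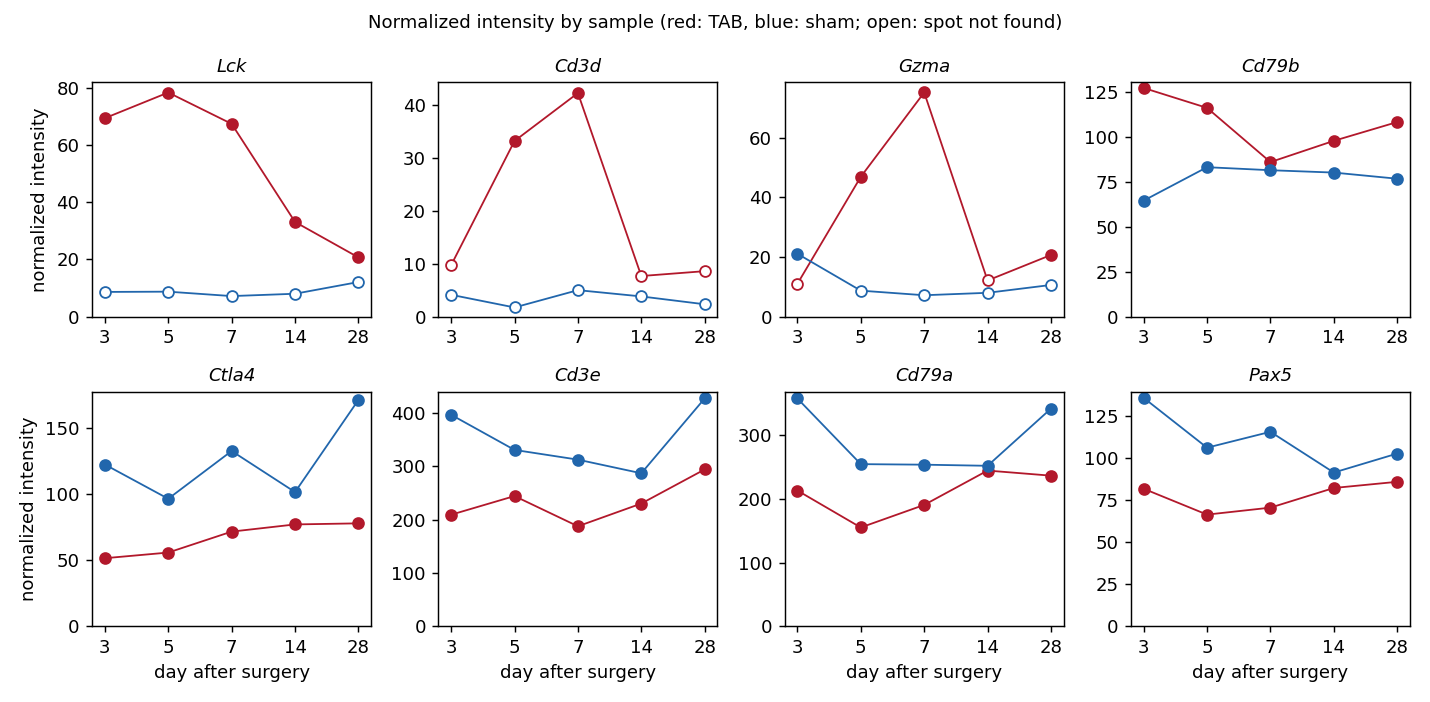
Normalized intensity (linear, from 0) against the day after surgery for 8 member genes, with 1 point per sample, TAB in red and sham in blue, and open circles for spots not found. Lck and Cd3d lie above sham on every day with sham spots open, Gzma reaches 75.2 on day 7 after TAB, and Ctla4, Cd3e, Cd79a and Pax5 lie below sham on every day.

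Ctla4, an inhibitory receptor that restrains activated T cells, was found on all arrays. It measured 51.3, 55.6, 71.4, 76.9 and 77.7 after TAB and 122, 96.2, 132, 101 and 171 after sham. Every TAB value lay below every sham value. The mean log2 ratio was −0.89 ± 0.15 (SE, n = 5 days, limma adjusted p = 0.0258), which puts sham 1.86-fold above TAB. Cd28, the activating receptor that binds the same ligands, measured 59.1, 46.9, 49.5, 62.4 and 72.7 after TAB and 50.7, 80.1, 69.9, 62.0 and 84.6 after sham. Its groups overlapped, with a ratio of −0.25 ± 0.17 (adjusted p = 0.347), and Icos of the same family was found nowhere.

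Zap70, the kinase that follows Lck, measured 83.4, 81.0, 84.0, 91.3 and 89.7 after TAB and 99.7, 75.0, 121, 107 and 132 after sham. The values overlapped and the ratio was −0.29 ± 0.13 (SE, limma adjusted p = 0.187). The adaptor gene Lat, whose protein ZAP-70 phosphorylates, was found on the TAB arrays of days 5 and 7 alone, with raw intensities of 27 and 36 against 8 to 15 in sham. On the other days TAB measured 4 to 20. The difference over the days was not called (limma adjusted p = 0.348). Of the 3 signalling genes, Lck was thus called and the other two were not.

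Among T cell surface proteins, the adhesion receptor gene Cd2 measured 102, 97.0, 77.1, 91.3 and 143 after TAB and 158, 143, 149, 122 and 127 after sham. TAB was lower on 4 of 5 days, and the ratio of −0.48 ± 0.18 was not called (limma adjusted p = 0.116). The coreceptor gene Cd8b1 measured 33.7, 53.8, 56.6, 19.2 and 36.8 after TAB and 45.8, 18.9, 28.5, 15.0 and 25.3 after sham, higher in TAB on 4 of 5 days with a ratio of 0.59 ± 0.28 (adjusted p = 0.196). Its spot was found on days 5, 7 and 28 after TAB and on days 3 and 28 after sham, so in both groups on day 28 alone. Cd8a, the other CD8 chain, had 1 probe found on no array and 1 found on the sham array of day 5 only, with raw intensities of 3 to 11 and of 6 to 24. Cd4 was found on the TAB array of day 28 only, where its raw intensity was 30, against 4 to 11 on the other TAB arrays and 1 to 14 after sham. It was not called (adjusted p = 0.586). No coreceptor gene was called.

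Cd27, a costimulatory receptor of T cells, was read by 3 probes, which are given separately. Probe PH_mM_0012643 measured 40.3, 34.5, 16.2, 41.0 and 29.3 after TAB and 43.7, 47.5, 42.9, 45.6 and 41.9 after sham, so that all TAB values lay below all sham values (ratio −0.53 ± 0.21, limma adjusted p = 0.134). Probe PH_mM_0016204 measured 73.9, 57.4, 52.5, 53.3 and 54.4 after TAB and 61.9, 67.4, 72.6, 53.4 and 54.7 after sham (ratio −0.09, adjusted p = 0.682). Probe mMC001980 measured 61.9, 73.9, 76.1, 78.8 and 62.3 after TAB and 452, 60.7, 71.1, 51.5 and 48.2 after sham, with the sham array of day 3 far above the others. Its log2 ratio was −2.87 on day 3 but 0.28, 0.10, 0.61 and 0.37 on the later days, where the ratios of PH_mM_0012643 were −0.46, −1.41, −0.15 and −0.52. These 2 probes of the gene therefore had opposite directions on 4 of 5 days, and no Cd27 probe was called.

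Of the transcription factor genes that mark T cell subsets, Foxp3, the factor of regulatory T cells, was found on 8 arrays. It measured 41.9, 42.4, 11.6, 47.2 and 43.8 after TAB and 62.9, 49.5, 43.9, 20.7 and 57.0 after sham. TAB was lower on 4 of 5 days, and the 2 low values were the spots not found, 1 in each group. The ratio was −0.38 ± 0.41 (limma adjusted p = 0.556). Gata3 and Tbx21, factors of helper T cell subsets, were found nowhere.

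Of the genes of cytotoxic granules, Gzma and Gzmb were both found on the TAB arrays of days 5 and 7. Gzma (granzyme A) had raw intensities of 9, 48, 73, 11 and 32 in order of day after TAB and 32, 8, 6, 8 and 13 after sham. It was found on the TAB arrays of days 5, 7 and 28 and on the sham array of day 3. Its normalized log2 ratio was −0.94, 2.43, 3.39, 0.60 and 0.96, with a mean of 1.29 ± 0.61 that was not called (limma adjusted p = 0.196). The ratios after day 3 were taken against sham spots that were not found.

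Gzmb (granzyme B) was removed by the filter because of sham values near 0. Its raw intensities, not scaled between arrays, were 11, 50, 116, 5 and 10 after TAB and 7, 0, 6, 2 and 12 after sham, and the spot was found on the TAB arrays of days 5 and 7 only. Nkg7, a granule membrane protein gene of NK and cytotoxic T cells, was found on the TAB arrays of days 3 and 7, with raw intensities of 15 and 25, and on no sham array, where the raw intensity was 2 to 10. Its normalized intensity was higher in TAB on 5 of 5 days, with 2 of 5 TAB spots and 0 of 5 sham spots found, and it was not called (limma adjusted p = 0.101). Klrd1 (CD94), an NK receptor chain, was found on the TAB array of day 5 only, with a raw intensity of 41 against −2 to 8 in sham. Prf1 did not follow the granzymes and was found nowhere.

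Of the cytokine receptor genes, neither was called. Il2rb, the beta chain of the receptors for interleukins 2 and 15, measured 93.2, 85.2, 75.2, 84.9 and 81.5 after TAB and 86.7, 91.1, 111, 63.0 and 58.5 after sham, with a ratio of 0.07 ± 0.18 (limma adjusted p = 0.819). Il7r was found on the TAB arrays of days 5 and 7, at raw intensities of 43 and 46, and on the sham array of day 3, at 48. Its ratio was 1.95 on day 5 and 1.74 on day 7, against sham spots not found, but −1.44 on day 3, so the days differed in direction, and the mean of 0.52 was not called (adjusted p = 0.518). Ifng (interferon gamma) was found on 1 array, sham of day 14, at a raw intensity of 35.

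The B cell genes did not share a direction. Cd79a measured 213, 155, 191, 245 and 237 after TAB and 358, 255, 254, 252 and 342 after sham. Cd79b, its partner in the B cell receptor complex, measured 127, 116, 85.9, 97.8 and 108 after TAB and 64.5, 83.1, 81.4, 80.1 and 76.7 after sham. All TAB values of Cd79a lay below and all of Cd79b lay above the sham values. Neither passed the adjusted threshold, with ratios of −0.49 ± 0.14 (limma adjusted p = 0.0633) and 0.46 ± 0.15 (limma adjusted p = 0.0887).

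Pax5, the factor that fixes B cell identity, measured 81.6, 66.3, 70.4, 82.1 and 85.8 after TAB and 136, 106, 115, 91.3 and 103 after sham. The groups did not overlap and the ratio was −0.51 ± 0.14 (limma adjusted p = 0.0578). Cd22, an inhibitory receptor of B cells, measured 325, 296, 283, 371 and 322 after TAB and 314, 296, 285, 218 and 252 after sham, with overlap and a ratio of 0.23 ± 0.15 (limma adjusted p = 0.333). Pou2af1, a B cell coactivator gene, passed the filter though it was found nowhere, with raw intensities of 10 to 25 after TAB and 2 to 23 after sham (adjusted p = 0.423).

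Read without a model, the 5 TAB values lay above all sham values for Lck, Cd3d and Cd79b, 3 of 28 member probes against 8.78% of all probes. They lay below for Ctla4, Cd79a, Pax5 and 1 Cd27 probe, 4 of 28 against 7.59%. By day, a ratio of more than 2 SDs of the ratios of all probes was reached by 3, 4, 8, 2 and 2 of the 28 member probes in order of day. Of all probes it was reached by 5.4%, 5.46%, 5.49%, 5.66% and 5.91%. Higher were Lck and Nkg7 on day 3, then Cd3d, Lck, Il7r and Gzma on day 5, and Cd3d, Cd4, Lck, Lat, Il7r, Gzma and Pou2af1 on day 7. Lck was higher on day 14, and Cd3d and Cd4 on day 28. Lower were Cd27 (probe mMC001980) on day 3, Foxp3 on day 7 and Cd247 on day 14. Each of the higher ratios was taken against a sham spot that was not found. The TAB spots of Cd4 and Pou2af1 on day 7 and of Cd3d on day 28 were not found either. Among the lower ratios, the TAB spots of Foxp3 and Cd247 were not found, nor was the sham spot of Cd247. No p-value applies to a single day.

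Other genes of these cells and of their surroundings were read from lists of markers, whose counts stand against 7.47% of all probes called higher and 6.73% called lower. The lists were chosen with earlier results of these data known, so these shares are not an independent comparison. Of 29 kept probes of further T cell receptor signalling genes, 2 were called higher and 2 lower (median log2 ratio 0.02), namely Thy1 and 1 of 2 Vav1 probes against Prkcq and Ubash3a. Of 17 further B cell probes, 3 were called higher (Btk, Cd72 and Syk) and 1 lower (1 of 2 Cd40 probes), with a median of −0.04. Of 17 further NK probes, 5 were higher (Fcgr3, Tyrobp, Xcl1 and both of Hcst, 1 of which was found on a single array) and 1 lower (1 of 3 Samd3 probes), with a median of 0.44. Of 21 probes for chemokines, adhesion molecules and cytokines that act on lymphocytes, 5 were higher and 1 lower, with a median of 0.41. Among the 5, Cxcr6, a chemokine receptor of effector T and NK cells, was found on 5 TAB and 0 sham arrays, and Ccl5, a chemokine made by them, on 4 and 0. Cx3cl1 and Vcam1 were also among them. The gene called lower was Il15, a survival cytokine of NK and memory T cells, with a log2 ratio of −0.75 ± 0.12 (limma adjusted p = 0.0246).

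Markers of macrophages and of leukocytes in general moved with TAB. Of 13 macrophage and monocyte probes, 11 were called higher and 0 lower (median 1.26), and their summed normalized intensity was 12928.5 to 29877 after TAB against 7486 to 9059 after sham. Of 14 probes of leukocytes in general, 7 were higher and 0 lower (median 1.18). Ptprc (CD45), carried by all leukocytes, rose by 1.26 ± 0.25 on the log2 scale (limma adjusted p = 0.0309), with 1.18, 2.31, 1.25, 0.87 and 0.67 in order of day. A second Ptprc probe was found nowhere. Fcgr3, Tyrobp, Btk and Syk are also expressed by macrophages, and their part in the counts above was not tested.

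Of 10 neutrophil probes 1 was higher (S100a8, whose spot was found on no array), of 6 dendritic cell probes 0 and of 5 mast cell probes 1 (Kit), with 0 lower in each. Of 7 fibroblast probes 4 were higher, among them Thy1, which the list of T cell genes shares. A list for the thymus was not limited to genes of its immature T cells. Of its 8 probes 0 were called, with a median of −0.46 and a summed level of 215 to 279 after TAB and 229 to 391 after sham. The probes of Rag1 and Rag2, which define immature T cells, and 1 of 2 Dntt probes were found on no array, and the other Dntt probe on 1 sham array. Cd1d1, which other cells also express, was found on 10 arrays, Ptcra on 9, Foxn1 on 8 and Psmb11 on 1 TAB and 4 sham arrays. The lowest ratios of this list were those of Psmb11 at −1.22 (limma adjusted p = 0.0694) and the Dntt probe found on 1 sham array at −0.93 (adjusted p = 0.0665). The other Dntt probe had −0.25 (limma adjusted p = 0.675). Of 4 erythroid and 9 endothelial probes 0 were called. All 10 cardiomyocyte probes were found on all 10 arrays, and 1 was called lower, which was 1 of 2 probes of Mb (myoglobin), while the other had a log2 ratio of −0.04 (adjusted p = 0.849). The part of these cell types in the results for Lck, Cd3d, Ctla4 and Cd3e was not tested.

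Without day 3, 5, 7 or 14, in turn, none of the 4 genes was called, and without day 28 Lck and Ctla4 were called and Cd2 was called lower. In the fits without 1 of days 3 to 14 the log2 ratio was 2.25 to 2.55 for Lck, 1.80 to 2.62 for Cd3d, −1.02 to −0.80 for Ctla4 and −0.66 to −0.51 for Cd3e, with adjusted p between 0.0506 and 0.117. Calls over all probes fell as well, from 2836 to 13, 35, 23 and 184 without days 3, 5, 7 and 14, and were 2773 without day 28. With 50 added to the normalized intensity before log2, which weighs down spots near background, the log2 ratio was 0.78 for Lck (adjusted p = 0.0116) and 0.37 for Cd3d, which was then not called (adjusted p = 0.0646). The sign of the ratio of each of the 4 genes was the same in every setting tried.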

How the data were processed

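Left ventricle RNA of 5 TAB and 5 sham samples was labelled with Cy5 and read in 1 colour on Mouse Whole Genome OneArray slides. The authors deposited, per probe, a raw intensity with the background already subtracted by a method not given in the sources used here, a detection p-value whose computation is not given, and a flag whose negative value was read as a spot not found. The depth of an array is not a read count, so the number of arrays limits the precision.

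Each array was divided to reach the same median. Probes under 1 on any array after this step were dropped, and quantile normalization over the 10 arrays set each rank to its median, with ties averaged. Log2 values were fitted with limma 3.58.1 in R 4.3.3 (lmFit, eBayes) and a term for day, and p-values were adjusted by Benjamini-Hochberg over all 19976 probes. Every probe was fitted, since choosing the probe of a gene by its largest ratio, as in the methods of the study, uses the outcome. Replicates were separate samples of different days, and how many mice each held is not stated, so p-values measure the spread between these samples.

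The pairing by day follows the ratios in the study's methods. The correlation over probes between the 2 samples of a day, each taken as its deviation from its group mean, was r = 0.112, 0.00148, 0.0466, 0.0164 and 0.0163 in order of day. For Lck, found on all TAB arrays and no sham array, the difference was also given as a bound. The fits were tested on 19976 simulated probes, 200 of them changed, with the spread of each probe and no differences between days. The TAB effect was recovered for 82% of probes changed by a log2 of 2 and 90% of those changed by 3, with 9 false calls. Changes as small as those of Ctla4 and Cd3e were not simulated. The early against late contrast was recovered for 26% and 58%, with 2 false calls.

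All 37 genes are accounted for. Values in every sample are given for genes with a probe found on at least 5 arrays, and raw intensities for other genes, most of them as ranges. Normalized values are also given for Cd3d, which was called. The members, the marker lists and the alternatives were chosen with earlier results of these data known. The floor at the 1st percentile of found spots was added after seeing the values. Alternatives were median scaling alone, quantile normalization to the mean of a rank or within TAB and sham separately, 50 added before log2, probes under 1 set to 1, probes not found on 5 or more arrays left out, 1 probe per gene, the mean of probes, no day block, limma's trend and robust options, and leaving out each day. Python 3.11.15 with numpy 2.4.6, pandas 2.3.3 and matplotlib 3.10.9 was also used. Promoters and motifs came from RefSeq sequences on GRCm38.p6.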

Additional observations from a re-analysis of the deposited data

Results flagged for a closer look

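Within-group outliers were looked for in 56 groups of 5 values (28 probes in each operation), and 5 were found, where chance flags about 1 in 20. The Cd27 probe mMC001980 measured 452 on the sham array of day 3 against 48.2 to 71.1 on the other sham arrays, and the Cd27 probe PH_mM_0016204 measured 73.9 on the TAB array of day 3 against 52.5 to 57.4. Foxp3 measured 11.6 on the TAB array of day 7 against 41.9 to 47.2 on the other TAB arrays. The Cd8a probe PH_mM_0001162 measured 13.8 on the TAB array of day 3 against 4.29 to 5.98, and Pou2af1 measured 2.74 on the sham array of day 7 against 11.8 to 17.5. The spots of Foxp3, Cd8a and Pou2af1 behind these 3 values were not found.

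Signal also appeared in probes that the filter had removed. Gzmb reached a raw intensity of 116 on day 7 after TAB, against 0 to 12 after sham, and Klrd1 reached 41 on day 5 after TAB, against −2 to 8 after sham. Ifng went the other way, with a raw intensity of 35 on the sham array of day 14 against −2 to 7 after TAB. None of these probes entered the test.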

How the results depend on the processing

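Among the 28 member probes, 2 were called higher and 2 lower. With quantile normalization within each operation 1 was lower, as Cd3e was lost. With 50 added before log2, 1 was higher (Lck) and 4 lower (Cd3e, Cd79a, Ctla4 and Pax5). With probes under 1 set to 1, 0 were higher and 0 lower, while 371 probes of the whole array were called in place of 2836. With probes not found on 5 or more arrays left out, which drops Lck and Cd3d by construction, 1 was higher (Cd79b) and 4 lower. With trend and robust on, 4 were lower. The share of all probes called also rose from 14.2% to 24.5% with 50 added, 28.5% with the probes not found left out and 23.7% with trend and robust on. With 50 added the log2 ratio was 0.78 for Lck and 0.37 for Cd3d, in place of 2.45 and 2.30. Leaving out each day in turn gave 0 to 1 higher and 0 to 2 lower. Without the replicate block, so with the pairing by day ignored, 3 were higher (Cd3d, Cd79b and Lck) and 3 lower (Cd3e, Ctla4 and Pax5), while 19.4% of all probes were called. Past 2 SDs of a day there were 19 of 140 member values (13.6%, against 5.58% of all values), 37 at an absolute log2 ratio of at least 1 (26.4% against 16.1%) and 8 past 3 SDs (5.71% against 1.61%), with the 5 days of a probe not independent. By a detection p-value under 0.05, the median number of member probes found was 1 after TAB and 2 after sham, in place of 18 and 15, and the number of all probes passing it ranged from 4955 to 10206 between arrays. Higher calls made up 52.6% of all calls, 66.4% with median scaling only, 65.5% with normalization within each operation and 71.2% with probes under 1 set to 1. In the early against late contrast, 0 members were called in any setting, and 9 probes of the array were called with 50 added, 35 with trend and robust on and 2 without the block. The adjusted p ranged from 0.00290 to 0.0886 for Lck, 0.0105 to 0.116 for Cd3d, 0.00407 to 0.0929 for Ctla4 and 0.00775 to 0.117 for Cd3e. The direction of a member's ratio was kept in 393 of 406 values over these settings. The cause of each change was not tested.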
